A study of Homo sapiens with 18 samples.

Results

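MBP, PMP22, CNP, GFAP, S100B and L1CAM were followed as 6 of the 63677 genes counted in WM989, an established human melanoma cell line. They were picked by symbol, as myelin and glial genes, for how their levels compared across the 6 groups of the study. Every comparison of these groups therefore entered the choice, and the levels and fold changes of the 6 genes are a description. Calls of the 6 genes, given below from a fit of all genes, are no independent test of them. Polyadenylated RNA was sequenced from cells kept for 7 days in DMSO, the solvent control, or in EPZ5676 at 4 µM, which blocks DOT1L, an enzyme that methylates histone H3. From each treatment came unsorted bulk cells, cells sorted for high NGFR and EGFR, and cells sorted for low NGFR and EGFR, called high and low cells here, with 3 libraries per group. All 6 groups come from the same line, and nothing in the labels says whether the 3 libraries of a group are separate cultures. The p-values given for other genes therefore measure only the spread between these libraries, which may be technical.

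Myelin is the stacked membrane that oligodendrocytes in the brain and Schwann cells in nerves wrap around axons. MBP holds the cytoplasmic faces of that membrane together, PMP22 is a four-pass membrane protein of nerve myelin, and CNP is a cyclic nucleotide phosphodiesterase of the cytoplasm-filled parts of the sheath. GFAP is the intermediate filament protein of astrocytes, S100B a calcium-binding protein of glia and pigment cells that is also used as a melanoma marker, and L1CAM an adhesion molecule of axons and of many tumours. Melanocytes and Schwann cells both descend from the neural crest.

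MBP and CNP were the myelin genes whose levels lay on opposite sides in high and low DMSO cells, so the sequence upstream of their starts is shown. RefSeq windows of 300 bases on GRCh38.p14 reach from 250 bases before to 50 bases after a gene's start, and 4 of the 6 genes had 9 such windows. Only bases outside transcripts are printed, 5′ to 3′ on the gene's own strand, and capitals mark the GC box letters GGGCGG on either strand. The MBP stretch is 189 bases at chr18:77132845-77133033 on the minus strand and the CNP stretch 196 bases at chr17:41966545-41966740 on the plus strand.
MBP: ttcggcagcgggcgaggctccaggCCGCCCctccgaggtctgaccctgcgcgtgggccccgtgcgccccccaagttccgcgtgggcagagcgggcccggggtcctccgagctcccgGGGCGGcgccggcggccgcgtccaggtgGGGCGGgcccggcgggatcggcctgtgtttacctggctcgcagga
CNP: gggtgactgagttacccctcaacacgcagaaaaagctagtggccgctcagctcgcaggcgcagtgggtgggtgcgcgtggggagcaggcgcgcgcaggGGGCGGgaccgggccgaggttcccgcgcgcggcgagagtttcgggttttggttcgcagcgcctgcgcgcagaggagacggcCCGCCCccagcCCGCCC
Both printed stretches hold 3 GC box matches. The full windows they come from hold 3 in MBP and 5 in CNP, and 45.0% of all 35116 windows of 300 bases hold at least 1. These 2 windows are also rich in G and C, at 80.3% in MBP and 74.7% in CNP, against a median of 58.7% over all windows. The outer MBP start belongs to the long Golli transcripts. A second MBP window, nearer the end of the gene, holds 1 match, and a second CNP window 0. The 3 PMP22 windows hold 0, 1 and 1 matches and the 2 L1CAM windows 4 and 2. The SOX letters ACAAAG occur in 1 PMP22 window and in none of the other 8 windows, against 16.1% of all windows. The TATA letters TATAAA, the AP-1 letters TGANTCA and the MITF E-box CACGTG occur in 0 of the 9 windows. They occur in 11.5%, 7.71% and 7.26% of all windows. Motifs were searched on both strands, and a match is a description of letters, not a binding site. MBP counts sum Golli and myelin-type transcripts, since the table has 1 value per gene.

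The libraries held 13383741 to 26311674 gene counts, and levels are read counts scaled to library size with TMM factors (CPM), as mean ± SD of n = 3 libraries. DMSO bulk replicate 1 stood apart, at -30.5 on the first principal component, where DMSO bulk replicates 2 and 3 were at 45.1 and 44.2 and DMSO high cells at -87.6 to -86.7. Reads on no annotated feature made up 18.88% to 28.65% in 6 libraries, 5 of them from EPZ5676 cells, and at most 15.17% in the other 12. Summed melanocyte markers lay between 878 and 985 CPM in DMSO high cells and between 10353 and 10906 CPM in DMSO low cells. Under EPZ5676 the same sums were 1351 to 1492 CPM and 13112 to 13255 CPM. Fibroblast markers summed to 1122 to 1456 CPM in DMSO high and 73 to 76.4 CPM in DMSO low cells, and to 624 to 770.2 CPM and 99 to 102 CPM under EPZ5676. Such sums lean on the genes with most counts, PMEL with 2066730 over all libraries and COL1A1 with 80002. By the edgeR test below, 6 of 7 tested fibroblast markers were called higher and 1 lower in high cells under each treatment. There 56.3% and 48.9% of all genes were called. With EPZ5676 in high cells 1 was called higher and 0 lower, against 1.95% and 1.04% of all genes. Leukocyte markers summed to at most 2.72 CPM in any library. The part of the melanocyte and fibroblast marker differences in the values below was not tested. In bulk samples such as these, fewer cells of a type and less RNA per cell cannot be told apart.

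Defining genes of glia ranged from nearly absent to abundant. Among the oligodendrocyte markers, MAG had 6 counts over all 18 libraries, MOG 17, MOBP 3, OPALIN 2 and OLIG2 11. MYRF, with 1862 counts, and ERMN, with 599, are oligodendrocyte genes that were measured. Among the astrocyte markers, the water channel AQP4 had 4 counts, ALDH1L1 153, SLC1A2 211, GJA1 419 and SLC1A3 13695. The Schwann cell markers EGR2, PRX, CDH19 and PMP2 had 879, 1757, 4227 and 7738 counts, and SOX10, which pigment cells also use, 217896.

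MBP was high in DMSO high cells and near one level everywhere under EPZ5676. In DMSO low cells it measured 242, 246 and 224 CPM, mean 237 ± 11.7 (SD, n = 3). DMSO high cells held 498, 486 and 472 CPM, mean 485 ± 13.3 (SD, n = 3). The 2 DMSO sorts did not overlap, with high over low at 1.03 ± 0.08 (SE) on the log2 scale. With EPZ5676, low cells measured 334, 331 and 328 CPM (331 ± 3.05), bulk cells 323, 338 and 329.7 CPM (330.2 ± 7.49) and high cells 327, 309 and 339 CPM (325 ± 15.5). These 3 groups overlapped, and high over low was -0.02 ± 0.08, with a range of -0.09 to 0.03 over the alternatives. EPZ5676 cells therefore sat above DMSO in the low sort, by 0.48 ± 0.08, and below it in the high sort, by -0.58 ± 0.08, with no overlap in either. DMSO bulk cells measured 321, 236 and 249 CPM (269 ± 46), the highest being the library that stood apart. The bulk difference of EPZ5676 over DMSO was 0.30 ± 0.08, and 0.44 without that library. The difference between the high and low treatment effects was -1.06 ± 0.11. In order of level the high DMSO cells came first, then the low, bulk and high EPZ5676 cells, whose neighbours overlapped, then DMSO bulk and DMSO low cells. High EPZ5676 cells overlapped DMSO bulk cells, and DMSO bulk cells overlapped DMSO low cells.

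**Figure D1:**
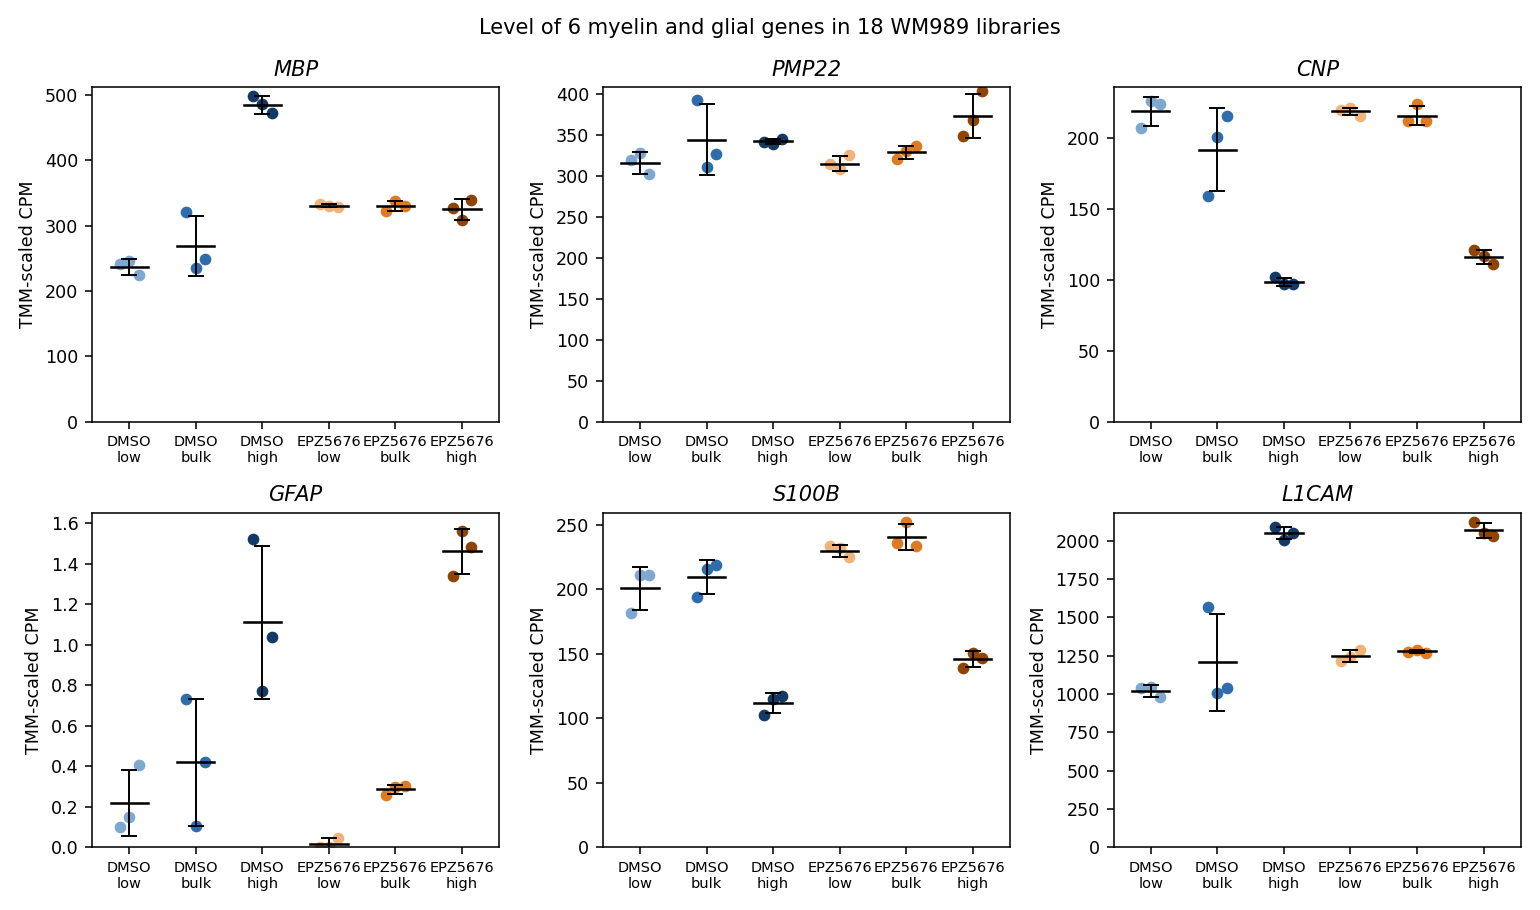
TMM-scaled CPM (vertical axis, starting at 0 and scaled separately per gene) of the 6 genes in each of the 18 libraries, by treatment and sort. Points are libraries, the long bar is the group mean and the short bars 1 SD on either side. MBP stands highest in DMSO high cells (485 CPM) and level at 325 to 331 CPM under EPZ5676, while CNP and S100B are low and L1CAM high in both high sorts.

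CNP, the enzyme of the myelin sheath's cytoplasmic parts, was low in high cells under both treatments. DMSO low cells measured 207, 226 and 224 CPM (219 ± 10.3, SD, n = 3), and DMSO high cells 102, 97.4 and 96.8 CPM (98.6 ± 2.66). High over low was -1.15 ± 0.08 on the log2 scale with no overlap. Under EPZ5676 low cells measured 219.6, 221 and 216 CPM (219 ± 2.32) and high cells 121, 117 and 111 CPM (116 ± 4.81), a difference of -0.91 ± 0.08. High cells were thus the lowest of the sorts under either treatment, and the low cells of both treatments overlapped. Every EPZ5676 high library was above every DMSO high library, by 0.24 ± 0.08, and the treatment difference in low cells was -0.0018. DMSO bulk measured 159.5, 201 and 216 CPM (192 ± 29.4) and EPZ5676 bulk 212, 224 and 212 CPM (216 ± 6.91). The lowest bulk value was again DMSO bulk replicate 1, and the bulk difference of 0.17 ± 0.08 became 0.05 without it. CNP overlaps DNAJC7 on the opposite strand in GENCODE 29, and the strand setting of the counting is not given in the sources used here.

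S100B, the calcium-binding protein, followed CNP across the sorts but lay higher with EPZ5676 in all 3 populations. It measured 182, 211 and 211 CPM in DMSO low cells (201 ± 16.7) and 103, 115 and 117 CPM in DMSO high cells (112 ± 7.68), a difference of -0.85 ± 0.07. With EPZ5676 low cells measured 234, 232 and 225 CPM (230.2 ± 4.64) and high cells 139, 151 and 147 CPM (146 ± 6.33), a difference of -0.66 ± 0.07. No high library reached a low library under either treatment. Bulk cells measured 194, 216 and 219 CPM in DMSO (209.7 ± 13.4) and 236, 252 and 234 CPM in EPZ5676 (241 ± 10.1). EPZ5676 over DMSO was 0.38 ± 0.07 in high, 0.19 ± 0.07 in low and 0.20 ± 0.07 in bulk cells, without overlap in any of the 3. No gene overlaps S100B in that annotation.

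L1CAM, the adhesion molecule, was high in high cells. It measured 1036, 1045 and 978 CPM in DMSO low cells (1019 ± 36.5) and 2089.7, 2006 and 2051 CPM in DMSO high cells (2049 ± 41.7). Under EPZ5676 it measured 1215, 1238 and 1287 CPM in low cells (1247 ± 36.8) and 2119, 2049 and 2030.4 CPM in high cells (2066 ± 46.8). The high libraries of both treatments overlapped each other and lay above all other libraries. High over low was 1.01 ± 0.12 under DMSO and 0.73 ± 0.12 under EPZ5676 on the log2 scale. EPZ5676 over DMSO was 0.01 ± 0.12 in high cells and 0.29 ± 0.12 in low cells, where every EPZ5676 library was above every DMSO library. In DMSO bulk cells L1CAM measured 1569.7, 1009 and 1040.2 CPM (1206 ± 315), and in EPZ5676 bulk cells 1275, 1289 and 1269 CPM (1278 ± 9.88). Without DMSO bulk replicate 1, the high library of that group, the bulk difference went from 0.08 to 0.32, and without DMSO bulk replicate 2 to -0.03. LCA10 overlaps L1CAM on the opposite strand, and a gene with only a clone name overlaps it on the same strand. Clone-named genes also overlap MBP, 1 on each strand, and PMP22, 1 on the opposite strand.

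**Figure D2:**
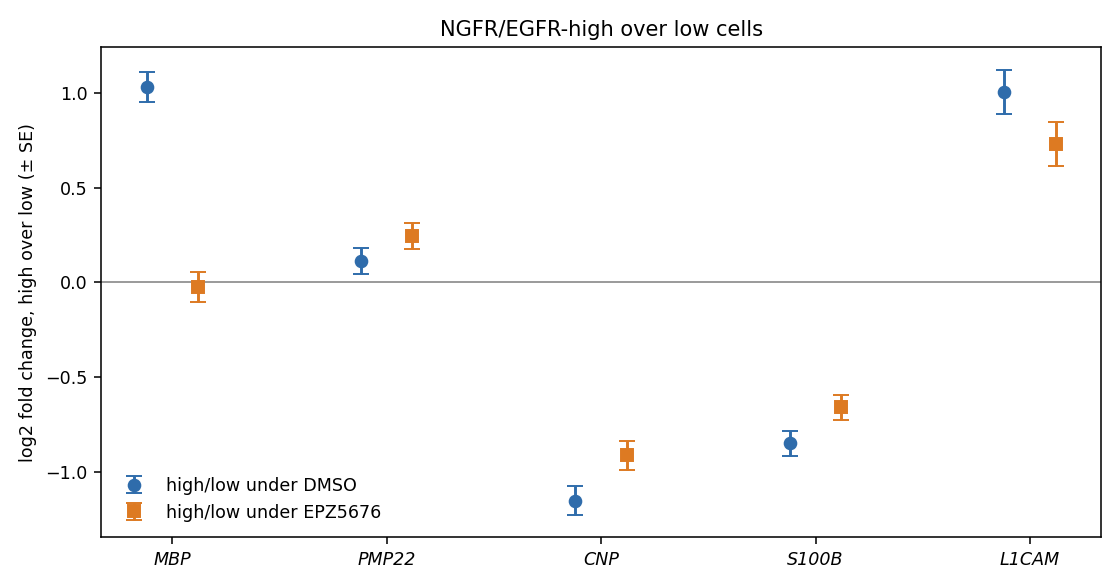
Log2 fold change of high over low cells (vertical axis) for MBP, PMP22, CNP, S100B and L1CAM, under DMSO (circles) and EPZ5676 (squares), with bars of 1 SE. MBP is at 1.03 under DMSO and -0.02 under EPZ5676, and the other 4 genes keep their sign.

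PMP22, the nerve myelin protein whose gene dosage underlies inherited neuropathies, was the flattest of the 5 genes with high counts. DMSO low cells measured 319, 328 and 302 CPM (316 ± 13.5) and DMSO high cells 341, 339 and 345 CPM (342 ± 2.99). EPZ5676 low cells measured 314, 308 and 325 CPM (315 ± 8.65) and EPZ5676 high cells 349, 368 and 403 CPM (373 ± 27.3). High cells lay above low cells without overlap, by 0.11 ± 0.07 under DMSO and 0.24 ± 0.07 under EPZ5676. DMSO bulk measured 393, 311 and 327 CPM (344 ± 43.5) and EPZ5676 bulk 321, 330.1 and 336 CPM (329 ± 7.84). EPZ5676 over DMSO was 0.13 ± 0.07 in high, -0.06 ± 0.07 in bulk and -0.0043 in low cells. In the bulk comparison the groups overlapped, and without DMSO bulk replicate 1 the value turned to 0.04.

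GFAP, the astrocyte filament protein, was near the limit of counting. Its counts per library ran from 0 to 31. DMSO low cells measured 0.0982, 0.151 and 0.405 CPM (14 counts in all) and DMSO high cells 1.52, 0.771 and 1.04 CPM (56 counts). EPZ5676 low cells measured 0, 0 and 0.0477 CPM (1 count) and EPZ5676 high cells 1.34, 1.56 and 1.48 CPM (82 counts). High libraries were above low libraries under both treatments. The ratio of high to low was 4.84 under DMSO (95% Poisson interval 2.66 to 9.42) and 87.4 under EPZ5676 (15.3 to 3500), an interval set by 1 count. Intervals cover counting error only and leave out the spread between libraries, such as 2, 3 and 9 counts in DMSO low cells. They are no test of a gene that these comparisons chose. In low cells EPZ5676 over DMSO was 0.0749 (0.00177 to 0.492), and in high cells 1.35 (0.951 to 1.94). The fitted log2 value in low cells was -3.29 ± 1.05 (SE), a difference that the fit did not call. Bulk cells held 0.731, 0.105 and 0.422 CPM in DMSO (23 counts) and 0.259, 0.298 and 0.3 CPM in EPZ5676 (16 counts), with a ratio of 0.709 (0.35 to 1.4). On the fitted log2 scale the bulk value was -0.51 ± 0.60, and 0.08 without DMSO bulk replicate 1. GFAP overlaps CCDC103 and FAM187A on the opposite strand.

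All 6 genes passed the filter on low counts. By edgeR's quasi-likelihood test with Benjamini-Hochberg adjustment over 18121 genes, 5 of the 6 were called between high and low cells under each treatment. There 56.3% of all genes were called under DMSO and 48.9% under EPZ5676. EPZ5676 against DMSO called 2 of the 6 in high cells, S100B higher and MBP lower, where 3.0% of genes were called. It called MBP alone in low cells, against 1.04% of genes, and 0 of the 6 in bulk cells, against 0.728%. The interaction of treatment and sort called MBP alone, against 0.320%. Without DMSO bulk replicate 1 the calls were CNP, MBP and S100B in high cells, L1CAM, MBP and S100B in low cells, L1CAM and MBP in bulk cells, and CNP, GFAP, L1CAM and MBP for the interaction. The shares of all genes called were then 10.7%, 5.15%, 2.93% and 5.71%. The calls of these 4 comparisons were not kept without the 6 libraries rich in reads on no feature, where hardly any gene was called. That fit left bulk and high EPZ5676 cells with 1 library each, so the loss says nothing particular about the 6 genes. MBP was then at -0.53 for EPZ5676 over DMSO in high cells. Since these same comparisons chose the genes, nothing is read from the counts. The sort and treatment comparisons also share libraries.

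Around these genes, 7 lists of glial genes with 143 measured members were followed, of which 107 passed the filter on low counts. Between high and low DMSO cells 63 of the 107 were higher and 25 lower, where 29.6% of all genes tested were called higher and 26.7% lower. Their median log2 fold change was 0.55, against 0.03 over all genes tested. Under EPZ5676 58 were higher and 23 lower, against 25.8% and 23.1% of all genes, with a median of 0.51. The 2 comparisons share no libraries. The lists were drawn up with earlier results of these data known, so these and the following list counts and medians are no independent test. Most list genes named below were picked by their small p in the same comparison. Their p-values, and how often a call held in the alternatives, are therefore no independent test either.

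The 19 tested genes of myelin membrane and adhesion split between the sorts under DMSO, with 7 higher and 6 lower in high cells and a median of 0.14. PMP2, a fatty acid-binding protein of nerve myelin, fell from 26.1 ± 1.63 CPM in low to 7.02 ± 1.3 CPM in high cells (SD, n = 3), a log2 fold change of -1.91 ± 0.15. Its adjusted p was 1.67e-09 by edgeR's quasi-likelihood test. GPM6B, a neural membrane glycoprotein, fell from 346 ± 17.5 to 132 ± 2.46 CPM (adjusted p = 4.96e-10). GJB1, a gap junction protein of nerve myelin, fell from 38.1 ± 2.32 to 3.41 ± 0.86 CPM (adjusted p = 9.67e-08). EMP1 and EMP2, relatives of PMP22, rose instead, EMP1 from 265 ± 17.7 to 366 ± 28.8 CPM and EMP2 from 21.8 ± 1.2 to 66.9 ± 7.63 CPM. ERMN, an actin-linked protein of oligodendrocytes, had 0 counts in DMSO low and 336 in DMSO high cells. With a floor of 3 counts over the group it was at least 136-fold higher. MBP and L1CAM thus stood on the high side of the sort, and PMP2, GPM6B and GJB1 with CNP on the low side.

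Of the 22 tested transcription factors of Schwann cells and oligodendrocytes, 12 were higher and 6 lower in DMSO high cells, with a median of 0.30. SOX10, which specifies neural crest glia and pigment cells, measured 749 ± 45.7 CPM in low and 293 ± 51.8 CPM in high cells, a fall of 1.35 ± 0.11 (adjusted p = 4.55e-08). EGR2, which drives nerve myelination, measured 1.34 ± 0.283 CPM in low and 3.2 ± 0.315 CPM in high cells (adjusted p = 0.000226). MYRF, which drives oligodendrocyte myelination, rose from 2.08 ± 0.455 to 8.64 ± 0.748 CPM. HES1, a Notch target, rose by 1.23 ± 0.10, and SOX6, a SOX factor, fell by 2.52 ± 0.18. Factors of the same named group thus moved to both sides.

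Among the 20 tested glial signals, receptors and precursor markers, 13 were higher and 6 lower in DMSO high cells, with a median of 0.67. ERBB3, a receptor for neuregulins in Schwann cells, fell from 314 ± 7.33 to 132 ± 9.8 CPM (adjusted p = 8.51e-11). NRG1, which encodes such a ligand, rose by 1.59 ± 0.21. FABP7, a fatty acid-binding protein of glial precursors, fell from 36.8 ± 2.43 to 10.4 ± 1.68 CPM. All 10 tested genes of the astrocyte and intermediate filament list were higher in DMSO high cells, with a median of 1.38. GLUL, the glutamine synthetase of astrocytes, rose from 228 ± 7.67 to 470.2 ± 4.9 CPM, and the glutamate transporter SLC1A3 from 31.3 ± 2.1 to 66.7 ± 3.12 CPM.

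The S100 list, taken without S100B, had 11 tested members, of which 9 were higher and 0 lower in DMSO high cells, with a median of 1.96. S100A16 rose from 22.4 ± 0.893 to 81.8 ± 3.23 CPM. S100A3 rose from 0.0467 ± 0.0451 CPM, which is near the limit of counting, to 8.03 ± 1.38 CPM. S100B, on the low side, therefore had the opposite sign to these 9 genes. In the L1 family list of adhesion partners and sheddases, 7 of 16 tested genes were higher and 6 lower, with a median of -0.03. CHL1, a close relative of L1CAM, fell by 1.03 ± 0.13, while BACE1, a membrane protease, rose by 0.94 ± 0.10 and the integrin ITGB3 by 0.91 ± 0.12. Of the 9 tested genes of myelin lipid synthesis and RNA handling, 5 were higher and 1 lower, with a median of 0.25. ENPP2, which makes lysophosphatidic acid, rose by 3.15 ± 0.36, and ELOVL7, a fatty acid elongase, fell by 1.34 ± 0.17.

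**Figure D3:**
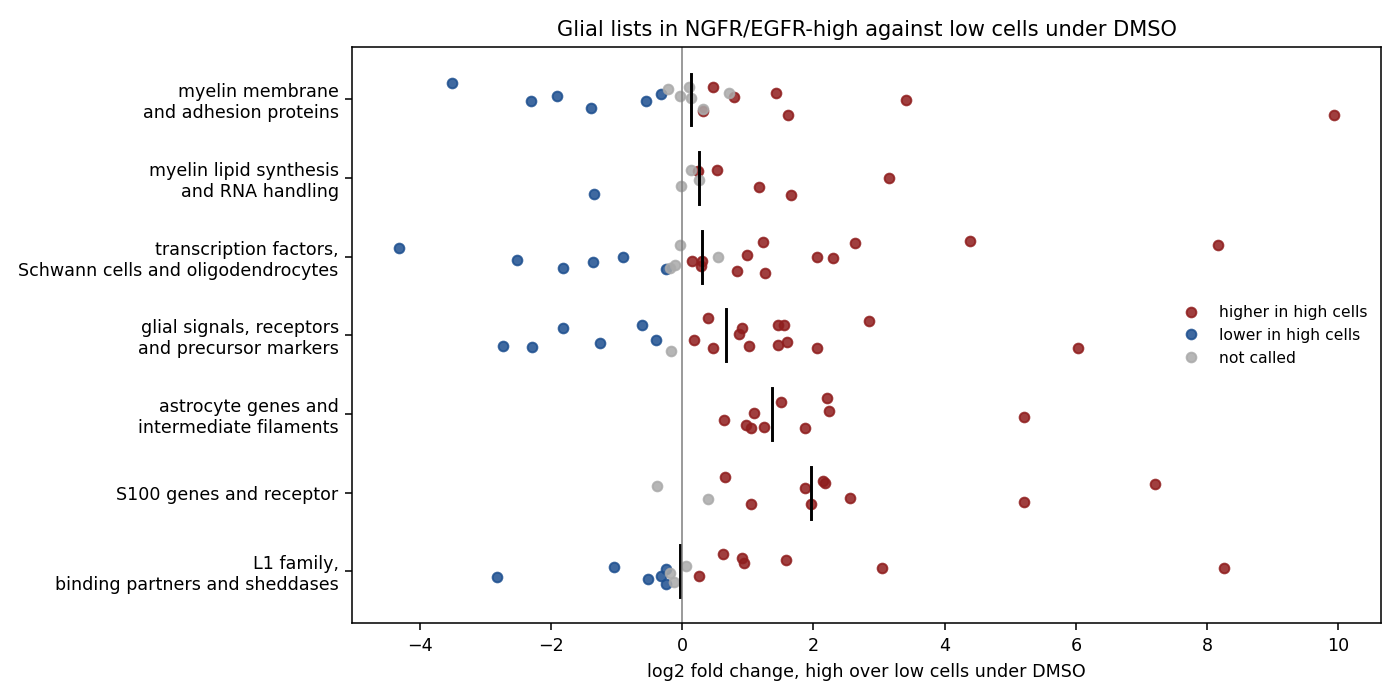
Log2 fold change of high over low cells under DMSO (horizontal axis) for each tested gene of the 7 glial lists (rows), coloured by the edgeR call, with a black bar at each list's median. The S100 and astrocyte lists have medians of 1.96 and 1.38 and hold no gene called lower, while the myelin membrane list spreads to both sides.

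With all 18 libraries fitted, EPZ5676 against DMSO called 9 of the 107 glial genes in high, 3 in low and 2 in bulk cells. In high cells 8 of the 107 were higher and 1 lower, against 1.95% and 1.04% of all genes, with a median of 0.06 against -0.0021 over all genes tested. At an unadjusted p under 0.05 there were 25, where 16.3% of all genes passed. PMP2 rose from 7.02 ± 1.3 to 13.3 ± 2.26 CPM, by 0.94 ± 0.15 (adjusted p = 0.00102, edgeR's quasi-likelihood test). PTPRZ1, a receptor phosphatase of glial precursors, rose from 5.18 ± 1.14 to 11.5 ± 0.368 CPM (adjusted p = 9.93e-05). ERBB3 rose by 0.29 ± 0.07, the fatty acid elongase ELOVL7 by 0.78 ± 0.18 and CNTN1, an axonal adhesion molecule, by 0.62 ± 0.16. NAB1, a corepressor that binds EGR2, fell by 0.22 ± 0.06. SOX10 measured 293 ± 51.8 CPM in DMSO and 377 ± 33.3 CPM in EPZ5676 high cells (adjusted p = 0.0878). In the same cells MBP had the opposite sign to PMP2, PTPRZ1 and ERBB3. The PMP2 call held in all 29 alternatives, with adjusted p from 9.51e-15 to 0.0459. PTPRZ1 lost its call in 1, the fit without the 6 libraries rich in reads on no feature, where 1 EPZ5676 high library was left and the log2 fold change was 1.40 against 1.16. Its adjusted p ran from 1.49e-13 to 0.0601. The ERBB3 call was lost in 4 alternatives (adjusted p from 0.000351 to 0.192), ELOVL7 in 6 (1.43e-05 to 0.723), CNTN1 in 12 (0.000978 to 0.349) and NAB1 in 14 (0.00658 to 0.849). Leaving out EPZ5676 high replicate 3 alone ended all 4 of these calls, and leaving out DMSO high replicate 1 those of ERBB3, CNTN1 and NAB1. Leaving out DMSO high replicate 2 ended those of ERBB3, ELOVL7 and NAB1, and leaving out DMSO high replicate 3 or EPZ5676 high replicate 2 those of ELOVL7, CNTN1 and NAB1. Leaving out EPZ5676 high replicate 1 or EPZ5676 low replicate 1 or 3 ended those of CNTN1 and NAB1. CNTN1 was also lost without EPZ5676 bulk replicate 1, and NAB1 without EPZ5676 low replicate 2 or EPZ5676 bulk replicate 3. SOX10 gained a call in 4 alternatives, among them those without DMSO bulk replicate 1 or DMSO high replicate 3, with adjusted p from 2.9e-07 to 0.279.

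In bulk cells 0 of the 107 glial genes were called higher with EPZ5676 and 2 lower, against 0.497% and 0.232% of all genes, by edgeR's quasi-likelihood test. At an unadjusted p under 0.05 there were 24 in either direction, where 12.3% of all genes passed. Limma-voom called 2 and DESeq2 4, of 138 and 290 genes called in all. POU3F2, a neural POU factor, measured 65.4, 56.9 and 60 CPM in DMSO bulk and 44.6, 43.2 and 45.1 CPM in EPZ5676 bulk cells. Every EPZ5676 library lay below every DMSO library, by -0.46 ± 0.08 (adjusted p = 0.0123). The other lower gene was ID4, an inhibitor of helix-loop-helix factors, at -0.37 ± 0.08 (adjusted p = 0.0374). In low cells 2 were higher and 1 lower, against 0.712% and 0.326%, and 24 were at an unadjusted p under 0.05, where 12% of all genes passed. The lower one was again POU3F2, with 54.6, 54.9 and 49.3 CPM in DMSO and 44.1, 35.9 and 37.1 CPM in EPZ5676 cells (adjusted p = 0.00918). Here too the groups did not overlap. The higher genes were PTPRZ1 (adjusted p = 0.0448) and the ankyrin ANK2 (adjusted p = 0.0265). The ID4 call was lost in 11 of 29 alternatives, among them those without any 1 EPZ5676 bulk replicate, with adjusted p from 0.00108 to 0.973. The PTPRZ1 call in low cells was lost in 17 of 29 alternatives, with adjusted p from 0.00266 to 0.297. The ANK2 call was lost in 6, with adjusted p from 0.00557 to 0.506, among them those without any 1 DMSO low replicate or EPZ5676 low replicate 1 or 2. The POU3F2 calls were lost in 4 each, with adjusted p from 7.03e-06 to 0.733 in bulk and 1.1e-05 to 0.0936 in low cells. Among these were the fits without EPZ5676 bulk replicate 1 or 2 for bulk, and without DMSO low replicate 2 or EPZ5676 low replicate 2 or 3 for low cells. The interaction called 0 glial genes by edgeR's quasi-likelihood test, against 0.204% of all genes called higher and 0.116% lower. At an unadjusted p under 0.05 there were 20, where 11.1% of all genes passed, and limma-voom called 0 and DESeq2 4.

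These counts moved with single libraries. Without DMSO bulk replicate 1 the glial genes called with EPZ5676 were 37 in high, 19 in low and 10 in bulk cells, and 18 for the interaction, against the shares of all genes given above. Between high and low cells 91 and 82 glial genes were called without it under DMSO and EPZ5676, against 57.5% and 50.6% of all genes. In bulk cells 0 were called without EPZ5676 bulk replicate 1 or 2, where 46 and 39 genes in all were called, against 132 with every library. The bulk count was 1 without EPZ5676 bulk replicate 3, EPZ5676 high replicate 1 or 2, or DMSO low replicate 2. There 49, 101, 94 and 109 genes in all were called. The counts of all genes moved in the other comparisons as well, with ranges given at the end. In high cells, for example, 282 genes in all were called without DMSO high replicate 1, against 543 with every library. Of the glial genes, 3 were called in high cells without EPZ5676 high replicate 3, and 5 without DMSO high replicate 1 or 3 or EPZ5676 high replicate 2. In low cells 0 were called without DMSO low replicate 2 or EPZ5676 low replicate 2, and 1 without the third replicate of either. The interaction called 1 without DMSO high replicate 3 or EPZ5676 low replicate 1. Without the 6 libraries rich in reads on no feature, the counts were 1 in high, 0 in low and 0 in bulk cells, with 0.0257%, 0.0360% and 0% of all genes called. That left bulk and high EPZ5676 cells with 1 library each. Without those 6 libraries MBP was at -0.53 for EPZ5676 over DMSO in high cells.

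**Figure D4:**
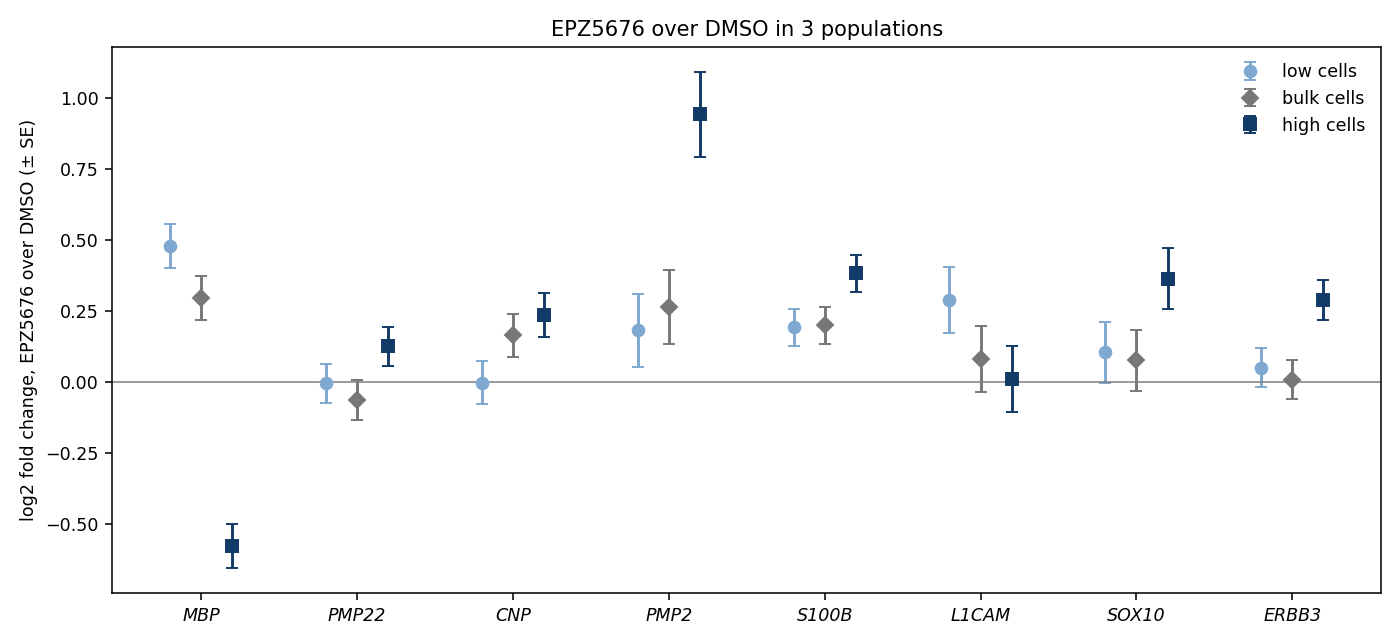
Log2 fold change of EPZ5676 over DMSO (vertical axis) in low (circles), bulk (diamonds) and high cells (squares), with bars of 1 SE, for 8 myelin, glial and adhesion genes. MBP is at 0.48 in low and -0.58 in high cells, and PMP2 at 0.94 in high cells.

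Across the 18 libraries the levels of the 6 genes were compared as log2 CPM with a prior count of 2. CNP and S100B had the most similar patterns, with Pearson r = 0.95, and CNP and L1CAM the most opposed, at -0.93. MBP stood at 0.79 with L1CAM, -0.72 with CNP and -0.66 with S100B. The libraries fall into high cells and the rest, share their depth scaling and are not independent of these groups, so r is a description. Among 10915 candidate genes, those most like MBP were ARHGEF3 (r = 0.958), PLXNA1 (0.939) and CYGB (0.93). ARHGEF3 averaged 10.5 CPM in its lowest and 19.1 CPM in its highest group, DMSO high cells. The genes most like CNP were ALDH1B1 (0.996), BAAT and MYH14, both at 0.995. For S100B they were HYOU1 (0.982), TRIM63 (0.979) and FABP7 (0.977), for L1CAM MICAL2 (0.993), SLC37A2 (0.992) and IRS1 (0.991), and for PMP22 LIPA (0.928), SELENON (0.913) and POFUT1 (0.908). GFAP, at its low counts, was most like SH3RF1 (0.952), CCNA2 (0.952) and ORAI2 (0.945). Without DMSO bulk replicate 1 the 3 genes most like MBP stayed the same, while PMP22 and CNP kept 1 of 3 and GFAP, S100B and L1CAM 2 of 3. HM13 (0.919) then came first for PMP22 and EIF4A3 (0.996) for CNP.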

How the data were processed

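The deposited table held raw read counts per Ensembl gene for 18 libraries, made by the authors. Per the submitters' processing notes, STAR aligned the reads to hg19 and HTSeq counted them. Versions, annotation release and strand setting are not given in the sources used here. Of 63677 genes, 52181 were named from a current table and 345 only from GENCODE 29. The tests left out HTSeq's 5 summary lines, among them ambiguous reads (6.07% to 7.71% of a library) and reads on no feature (12.8% to 28.65%). Counts were analysed with edgeR 4.0.16 in R 4.3.3: filterByExpr (18121 genes), TMM factors, a robust quasi-likelihood fit to 6 group means, and Benjamini-Hochberg adjustment with a threshold of 0.05. SE came from the F statistic.

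The 6 genes and the lists were chosen with earlier results of these data known. From each list and comparison up to 3 called genes per direction with the smallest p and at least 5 CPM were taken. SOX10, EGR2 and ERBB3 were always taken, but not every gene taken is described. Some list genes are not reported here and were left out of the lists. The 3 most alike genes had the highest r. Markers of melanocytes, fibroblasts, neurons and leukocytes were summed. Neuron markers summed to 17.3 to 27.9 CPM outside high cells and 42.8 to 47.9 CPM in high cells. Alternatives were other scaling, filters, DESeq2 1.42.0, limma 3.58.1 (voom), non-robust estimation, fewer groups, a replicate block, a no-feature covariate and left-out libraries. The pipeline was tested on simulated data. Sequences are from RefSeq on GRCh38.p14 and overlapping genes from GENCODE 29, a later build than the counts. Figures used Python 3.11.15 and matplotlib 3.10.9.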

Additional observations from a re-analysis of the deposited data

Results flagged for a closer look

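The treatment effect on MBP had opposite directions in the sorts. The log2 fold change of EPZ5676 over DMSO in high cells minus that in low cells was -1.06. The interaction fit called it, as given above, but the same contrast chose the gene. High minus bulk cells was -0.875, a difference that was not tested.

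Every EPZ5676 library measured less ID4 than every DMSO library in bulk cells and more in high cells, a difference of 0.504 that was not tested. DMSO high cells measured 38.5, 40 and 42.6 CPM of ID4 and EPZ5676 high cells 43.5, 43 and 46 CPM. For ANK2 every EPZ5676 library was above every DMSO library in bulk cells and below it in high cells, a difference of -0.394 that was not tested. Both genes came from a search of the named genes for such opposite directions. How many of all genes have this pattern was not counted, so nothing particular to these genes is read from it.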

How the results depend on the processing

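No called value reversed. Of 82 called values of list genes named by the rule, 17 lost the call in at least 1 alternative, and of 11 others 2 gained it. Between high and low DMSO cells the glial count of 88 ranged over 85 to 91 and the count of all genes, 10199, over 9474 to 10798 on leaving out 1 library. Under EPZ5676 these were 81 (77 to 82) and 8858 (8033 to 9496), and 51 and 4176 without the 6 libraries with over 16% of reads on no feature. In bulk cells the treatment called 2 glial genes (0 to 10) and 132 genes in all (39 to 550), in high cells 9 (3 to 37) and 543 (200 to 2018), in low cells 3 (0 to 19) and 188 (60 to 968). For the interaction the counts were 0 (0 to 18) and 58 (14 to 1072).

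Without a filter the glial counts were 9, 15, 7 and 5 for bulk, high, low and interaction, and the counts of all genes 440, 948, 373 and 304. Fitting only the groups compared gave 0, 28, 19 and 14 glial genes and 2, 1413, 1028 and 863 genes in all. Without the 6 libraries these were 0, 1, 0 and 0, and 0, 5, 7 and 0, with fewer samples fitted. DESeq2 gave 4 glial genes and 290 in all in bulk, 5 and 311 in low cells, and 4 and 182 for the interaction. The no-feature covariate gave 1 glial gene and 50 in all in bulk and 2 glial genes for the interaction. A mean of at least 5 CPM gave 1 glial gene for the interaction. Estimation that was not robust gave 1 glial gene in bulk, and 35 genes in all for the interaction. Apart from fewer samples, the cause was not tested. The r of deviations of same-numbered libraries ran from -0.34 to 0.296, highest for replicate 3 between high and low EPZ5676 cells. With 3 libraries per group it cannot show whether libraries were paired, and the main fit used no pairing. The replicate block gave 2, 8, 2 and 1 glial genes for bulk, high, low and interaction.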
